A study of Mus musculus with 8 samples.

Results

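Platelet and clotting-related transcripts in mouse whole blood were followed through 16 probe sets for 10 genes, out of 45101 probe sets on the arrays. They were selected by ID, as genes known for platelet granules, platelet surface receptors and clotting, at a time when earlier results of these data were known. Platelet factor 4 (Pf4), pro-platelet basic protein (Ppbp), Clec1b, Vwf, Alox12 and F5 had 1 probe set each, Selp and Itgb3 had 2 each, and Clu and Thbs1 had 3 each. The gene names are those given with this list, since the deposited files hold IDs alone. RNA came from blood of the vena cava of mice given cobalt chloride (CoCl2, 4 arrays) and of controls (4 arrays). Cobalt chloride keeps hypoxia-inducible factors from being degraded although oxygen is normal, hence the name chemical hypoxia. Treated mice were kept at room conditions and received 200 ng of CoCl2 per 100 ml per day for 15 days. The controls are titled chamber controls, and the protocol text places its control group at room conditions. Strain, sex and age are not given in the labels. Nothing in them says that arrays stem from separate mice, and p-values therefore cover the spread among these arrays, which may be technical. The comparison asks which of these transcripts differ in blood after chemical hypoxia.

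Platelets are fragments shed by megakaryocytes. They have no nucleus and carry mRNA inherited from the megakaryocyte, and whole-blood RNA therefore includes platelet RNA. On activation they release alpha-granule proteins, such as the chemokines Pf4 and Ppbp, bring P-selectin to their surface, and bind fibrinogen through an integrin that contains the beta subunit Itgb3. Vwf, Selp, Thbs1 and Clu are also made by other cells, endothelial cells among them. In bulk blood, more platelets and more RNA per platelet cannot be told apart.

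The regions just upstream of 4 of the genes are shown because these genes form the contrasts described further on, the barely differing Pf4 and Ppbp against Clec1b and Alox12. They come from RefSeq, build GRCm38.p6, where 6 of the 10 genes matched an entry, and they hold the 250 bases before the start of the transcript, 5′ to 3′. For Alox12, on the minus strand, the annotated gene reaches 70255380, so the last bases of its window lie within the annotated gene. Capitals mark 4 motifs of 5 letters searched on both strands: GATAA, the core bound by GATA factors, GGAAG, the core bound by ETS factors, and ACGTG and GCGTG, the cores bound by hypoxia-inducible factors. None of the motifs contains another.
Pf4, chr5:90772185-90772434, plus strand: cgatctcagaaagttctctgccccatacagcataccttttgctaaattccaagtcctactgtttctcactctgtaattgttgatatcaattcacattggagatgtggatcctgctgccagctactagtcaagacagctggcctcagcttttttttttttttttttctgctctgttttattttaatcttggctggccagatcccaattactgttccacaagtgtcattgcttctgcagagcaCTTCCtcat
Ppbp, chr5:90768268-90768517, plus strand: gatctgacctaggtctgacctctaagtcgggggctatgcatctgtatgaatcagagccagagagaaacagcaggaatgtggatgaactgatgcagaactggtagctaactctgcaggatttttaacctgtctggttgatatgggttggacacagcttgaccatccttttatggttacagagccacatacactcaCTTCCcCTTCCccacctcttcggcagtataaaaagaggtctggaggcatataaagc
Clec1b, chr6:129397047-129397296, plus strand: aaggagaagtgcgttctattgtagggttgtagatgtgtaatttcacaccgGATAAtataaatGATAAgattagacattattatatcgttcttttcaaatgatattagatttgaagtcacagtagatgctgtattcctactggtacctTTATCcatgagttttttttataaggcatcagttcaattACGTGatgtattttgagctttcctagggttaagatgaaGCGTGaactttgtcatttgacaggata
Alox12, chr11:70255371-70255620, minus strand: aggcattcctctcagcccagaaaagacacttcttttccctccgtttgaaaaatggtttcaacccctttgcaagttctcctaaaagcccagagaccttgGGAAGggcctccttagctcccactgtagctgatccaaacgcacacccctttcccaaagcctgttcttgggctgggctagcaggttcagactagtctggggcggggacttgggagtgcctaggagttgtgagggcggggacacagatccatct

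In these windows, GGAAG was found upstream of 5 of the 6 matched genes (Pf4, Ppbp, Selp, Alox12 and F5), and 64.1% of 32851 RefSeq windows of that length hold it. GATAA was found 3 times upstream of Clec1b and in none of the other 5 windows, against 22.6% of all windows. Both hypoxia cores were found upstream of Clec1b only, ACGTG once and GCGTG once, against 16.6% and 28.2% of all windows. A match is a string of letters and was not tested as a binding site. Ppbp and Pf4 lie next to each other on chromosome 5, with 0 annotated genes between them, and so do Selp and F5 on chromosome 1.

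Of the 16 probe sets, 11 were higher with CoCl2 and 0 were lower (limma, threshold of 0.05 on Benjamini-Hochberg adjusted p), with the arrays scaled as deposited. At an unadjusted limma p under 0.05 the lower count was 0 as well. All 16 passed the filter on low values, which kept probe sets with a mean log2 value of at least 2.90. Over all 22519 tested probe sets 45.1% differed, 28.6% being higher and 16.5% lower. The rises covered Clec1b, both Selp probe sets, Vwf, 1 of the 2 for Itgb3, all 3 for Clu, Alox12, and 2 of the 3 for Thbs1, so 7 of the 10 genes had at least 1. The probe sets for Pf4, Ppbp and F5 did not pass, nor did 1455257_at for Itgb3 and 1460302_at for Thbs1. At least 2-fold higher were 7 of the 16, against 14.5% of all tested probe sets. The median log2 difference over the 16 was 0.93, with a range of -0.04 to 2.52, and that over all tested probe sets was 0.19. Every CoCl2 array lay above every control array for 11 of the 16, against 27.3% of all tested probe sets. This second set of 11 holds F5 in place of Selp 1449906_at.

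The scaling of the arrays bears on every one of these differences. GCRMA values are relative to each array's other signals, and bacterial control RNAs added to the samples, bioB and bioC, gave 11.17 to 11.47 with CoCl2 against 12.97 to 13.40 in controls, a log2 difference of -1.82. The beta-actin control probe sets were higher with CoCl2 by 0.65, while those for Gapdh, a glycolytic enzyme, differed by 0.03. Centred on bioB and bioC, all 16 probe sets were higher and their median difference was 2.75, where that over all tested probe sets was 2.00. Centred on beta-actin, 6 were higher and 4 lower, the lower ones being those for Pf4, Ppbp, Itgb3 1455257_at and Thbs1 1460302_at, and the medians were 0.28 for the 16 and -0.46 for all tested. Centred on Gapdh, 11 were higher and 0 lower. Over all tested probe sets, 6442 were higher and 3721 lower as deposited, and 5085 and 4709 after median centring. These counts were 20500 and 518 with bioB and bioC, 6094 and 3718 with Gapdh, and 1874 and 10625 with beta-actin. The labels give no hybridisation batch, and the groups carry separate ranges of ID numbers in their titles, so batch and treatment cannot be told apart. The difference between the 3' and 5' control probe sets, which grows as RNA breaks down, was 1.61 to 1.79 for beta-actin with CoCl2 and 1.75 to 1.99 in controls, and for Gapdh 1.55 to 2.02 and 1.38 to 1.62. The part of RNA quality in the results was not tested.

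**Figure D1:**
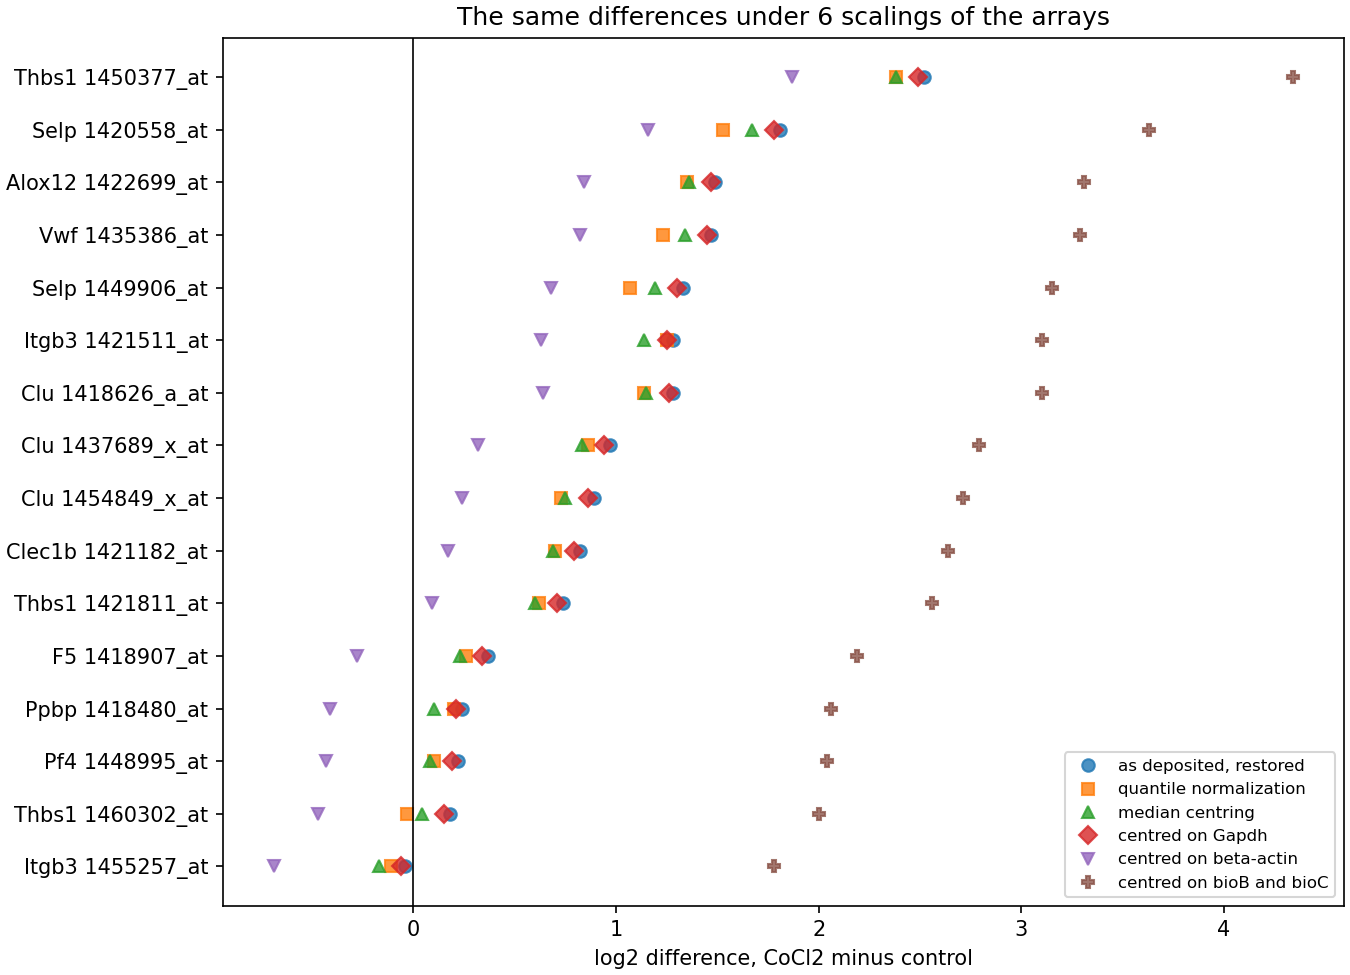
Log2 difference (CoCl2 minus control, x axis) of each of the 16 probe sets under 6 scalings of the arrays, 1 symbol per scaling. Quantile normalization nearly keeps the order of the probe sets, and the centred scalings keep it by construction, as they shift all differences alike. Centring on bioB and bioC puts all of them between 1.78 and 4.34. Centring on beta-actin puts Pf4, Ppbp, F5, Itgb3 1455257_at and Thbs1 1460302_at below 0.

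The alpha-granule chemokines Pf4 and Ppbp differed little. Pf4, a heparin-binding chemokine found nearly exclusively in megakaryocytes and platelets, had log2 values of 13.36, 13.17, 13.09 and 12.95 with CoCl2 and 12.95, 13.06, 12.74 and 12.95 in controls. The groups overlapped, and 3 of the CoCl2 arrays lay above all controls. Its log2 difference was 0.22 (SE 0.14, 95% interval -0.10 to 0.54, limma adjusted p = 0.224). Ppbp (1418480_at), the precursor of beta-thromboglobulin and of a neutrophil-attracting chemokine, stood at 13.75, 13.53, 13.75 and 13.41 with CoCl2 and at 13.48, 13.53, 13.26 and 13.22 in controls. Its log2 difference of 0.24 (SE 0.14, 95% interval -0.09 to 0.56) had a limma adjusted p of 0.199. Both intervals include 0, and both differences were close to the median of all tested probe sets.

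Among receptors of the platelet surface, Clec1b, both Selp probe sets and 1 of the 2 for Itgb3 rose, and the other for Itgb3 did not pass. Clec1b (1421182_at), the receptor for podoplanin that activates platelets, had log2 values of 13.05, 12.48, 12.58 and 12.31 with CoCl2 and of 11.65, 12.11, 11.50 and 11.88 in controls. All CoCl2 arrays lay above all controls, and the log2 difference was 0.82 (SE 0.20, limma adjusted p = 0.0106), a 1.77-fold rise. It stayed above 0 at 0.17 but no longer passed when centred on beta-actin.

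P-selectin, encoded by Selp, is stored in granule membranes and tethers leukocytes to activated platelets and endothelium. Its probe set 1420558_at stood at 8.05, 7.90, 7.40 and 7.31 with CoCl2 and at 5.44, 6.18, 5.33 and 6.48 in controls, without overlap. This rise of 3.50-fold, 1.81 as log2 (SE 0.29), had a limma adjusted p of 0.0016. Its second probe set, 1449906_at, was more scattered, with 6.82, 5.44, 6.25 and 6.17 against 4.45, 3.93, 5.50 and 5.48. Here CoCl2 replicate 2 lay below control replicates 3 and 4, and the difference of 1.33 (SE 0.41) had a limma adjusted p of 0.0269. That call was lost without CoCl2 replicate 1, 3 or 4 or without control replicate 1 or 2 (adjusted p from 0.0526 to 0.0728 in limma), with quantile normalization (0.0694) and with no filter (0.0869). It was also lost when centred on beta-actin, where the difference was 0.68 (limma adjusted p = 0.179), and in a test for changes beyond 1.5-fold (0.216).

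Itgb3 encodes the integrin beta subunit that pairs with Itga2b as the fibrinogen receptor, and its probe sets gave different answers. Probe set 1421511_at, at the lower end of the scale, had 4.29, 4.14, 4.58 and 4.02 with CoCl2 and 2.70, 3.01, 2.64 and 3.55 in controls. The groups did not overlap and differed by 1.28 (SE 0.23, limma adjusted p = 0.00233). The control values lay around the control array medians of 2.84 to 2.89, and no detection calls were used here, so the size of this difference and of ratios with this probe set depends on the low end of the scale. In contrast, 1455257_at had 11.62, 11.22, 11.33 and 11.30 with CoCl2 and 11.19, 11.58, 11.21 and 11.63 in controls, with full overlap. Its log2 difference was -0.04 (SE 0.16, 95% interval -0.41 to 0.33, limma adjusted p = 0.864). The log2 ratio of the first to the second on the same array was higher with CoCl2 by 1.32 (two-sided exact permutation p = 0.0286, adjusted 0.0457 over 8 pairs), with no overlap.

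**Figure D2:**
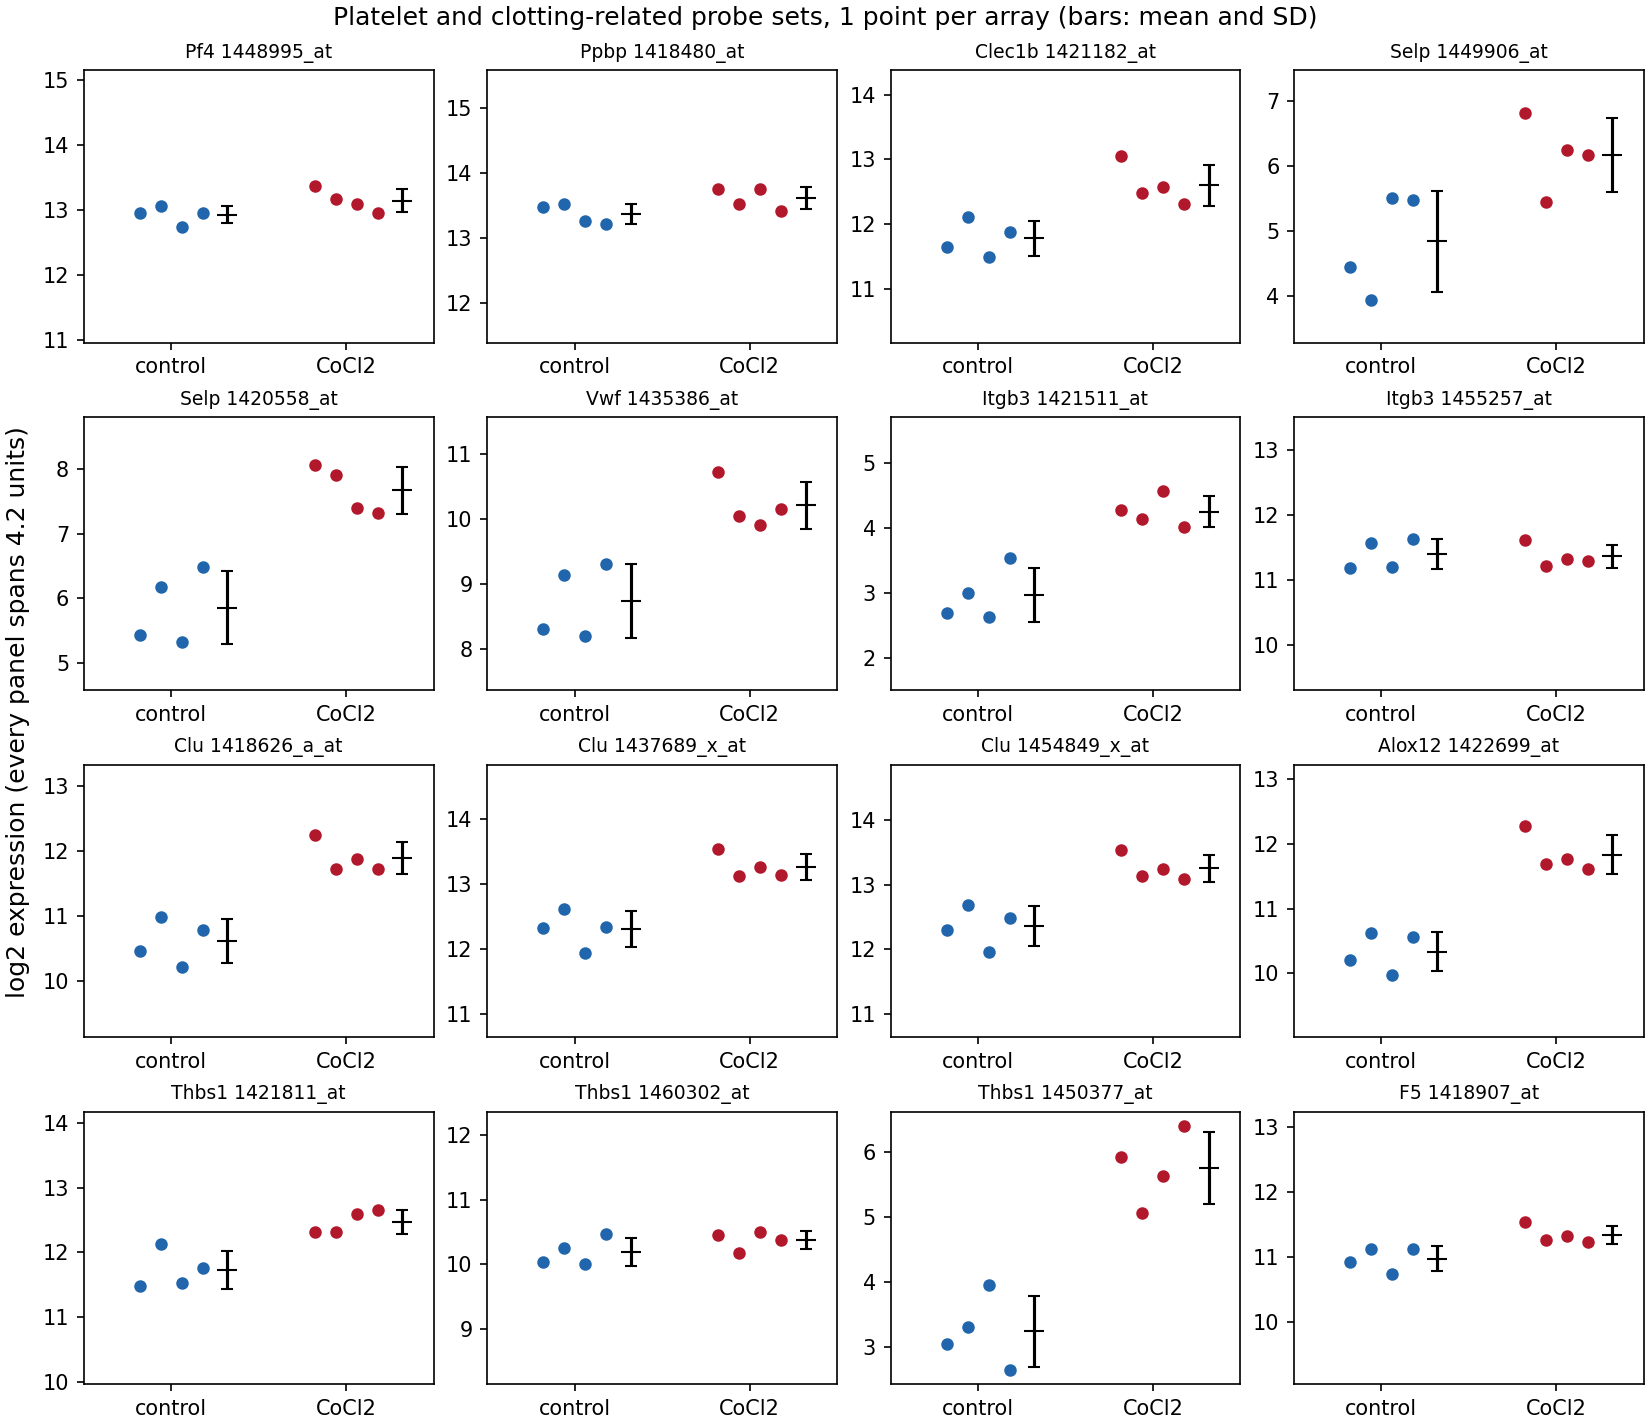
Log2 expression (y axis) of each probe set in the 4 control and 4 CoCl2 arrays, 1 point per array in the order of replicate numbers, with the mean and SD beside them. Every panel spans the same number of log2 units, so that the separation of the groups for Thbs1 1450377_at, Selp 1420558_at and Alox12 can be set against the overlap for Pf4, Ppbp and Itgb3 1455257_at.

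Adhesive ligands that platelets store and release were higher, with an exception in Thbs1. Vwf (1435386_at), von Willebrand factor, bridges exposed collagen and platelets and carries clotting factor VIII in plasma. It had log2 values of 10.73, 10.05, 9.90 and 10.15 with CoCl2 and of 8.30, 9.14, 8.20 and 9.31 in controls. The groups did not overlap, although the controls fell into a lower and a higher pair, and the log2 difference was 1.47 (SE 0.30, limma adjusted p = 0.00433), or 2.78-fold.

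Thbs1 encodes thrombospondin, an alpha-granule protein that binds integrins and CD36. Probe set 1450377_at showed the largest difference of the 16, with 5.93, 5.06, 5.64 and 6.40 with CoCl2 and 3.05, 3.30, 3.96 and 2.65 in controls. Its lowest CoCl2 array lay 1.10 above its highest control, and the log2 difference was 2.52 (SE 0.34, limma adjusted p = 0.000657), or 5.72-fold. Its control values also lay near the array medians, with the same limit on the size of the fold and of its ratios. Probe set 1421811_at had 12.31, 12.31, 12.60 and 12.65 with CoCl2 and 11.49, 12.13, 11.53 and 11.76 in controls. It exceeded the controls by 0.74 (SE 0.18, limma adjusted p = 0.0104), without overlap, but by 0.09 when centred on beta-actin (limma adjusted p = 0.695). Probe set 1460302_at had 10.45, 10.18, 10.50 and 10.37 with CoCl2 and 10.03, 10.25, 10.01 and 10.47 in controls. Those groups overlapped, and the difference of 0.18 (SE 0.15, 95% interval -0.16 to 0.52, limma adjusted p = 0.348) turned to -0.03 after quantile normalization.

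Within the arrays, the ratio of 1450377_at to 1460302_at was higher with CoCl2 by 2.34 and its ratio to 1421811_at by 1.78 on the log2 scale (exact permutation p = 0.0286 for each, adjusted 0.0457 over 8 pairs). The ratio of 1421811_at to 1460302_at was higher by 0.56 with overlapping groups (exact permutation p = 0.0571, adjusted 0.0762). Which transcripts or parts of the gene each one detects is not given in the files used here.

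Clusterin (Clu), an extracellular chaperone that platelets carry in alpha-granules, was higher on all 3 of its probe sets. Probe set 1418626_a_at had 12.25, 11.73, 11.88 and 11.73 with CoCl2 and 10.46, 10.99, 10.22 and 10.78 in controls. With an SE of 0.20, the log2 rise was 1.28 and the limma adjusted p 0.00142. Probe set 1437689_x_at went from a control mean of 12.30 ± 0.28 to 13.27 ± 0.20 (SD, n = 4 each), a rise of 0.97 (SE 0.18, limma adjusted p = 0.00278). For 1454849_x_at the means were 12.36 ± 0.31 and 13.25 ± 0.21 (SD, n = 4 each), a rise of 0.89 (SE 0.19, limma adjusted p = 0.00529). In none of the 3 did the groups overlap. The ratio of 1418626_a_at to each of the others was higher with CoCl2, by 0.32 and 0.40 (exact permutation p = 0.0286 for each, adjusted 0.0457 over 8 pairs), while the latter pair differed from each other by 0.08 (exact permutation p = 0.0857, adjusted 0.098). Centred on beta-actin, 1418626_a_at still passed and the other ones did not, at 0.32 and 0.24.

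Alox12 (1422699_at), the platelet lipoxygenase that oxidises arachidonic acid, had log2 values of 12.27, 11.68, 11.77 and 11.61 with CoCl2 and of 10.20, 10.62, 9.97 and 10.56 in controls. Its lowest CoCl2 array lay 0.99 above its highest control, and the log2 difference was 1.49 (SE 0.21, limma adjusted p = 0.000718), or 2.82-fold. Together with Selp 1420558_at, Itgb3 1421511_at, Clu 1418626_a_at and Thbs1 1450377_at it kept its direction and its call in all alternatives that tested it, the stricter filter having left out Itgb3 1421511_at.

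F5 (1418907_at), the cofactor of the protease that turns prothrombin into thrombin, is made in liver and also held by platelets. It had 11.54, 11.25, 11.32 and 11.23 with CoCl2 and 10.91, 11.12, 10.73 and 11.12 in controls. All CoCl2 arrays lay above all controls, by a gap of 0.11, but the log2 difference of 0.37 (SE 0.15, 95% interval 0.04 to 0.69) had a limma adjusted p of 0.0659. It passed with a trended robust prior (adjusted p = 0.0411 in limma) and turned to -0.28 when centred on beta-actin.

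**Figure D3:**
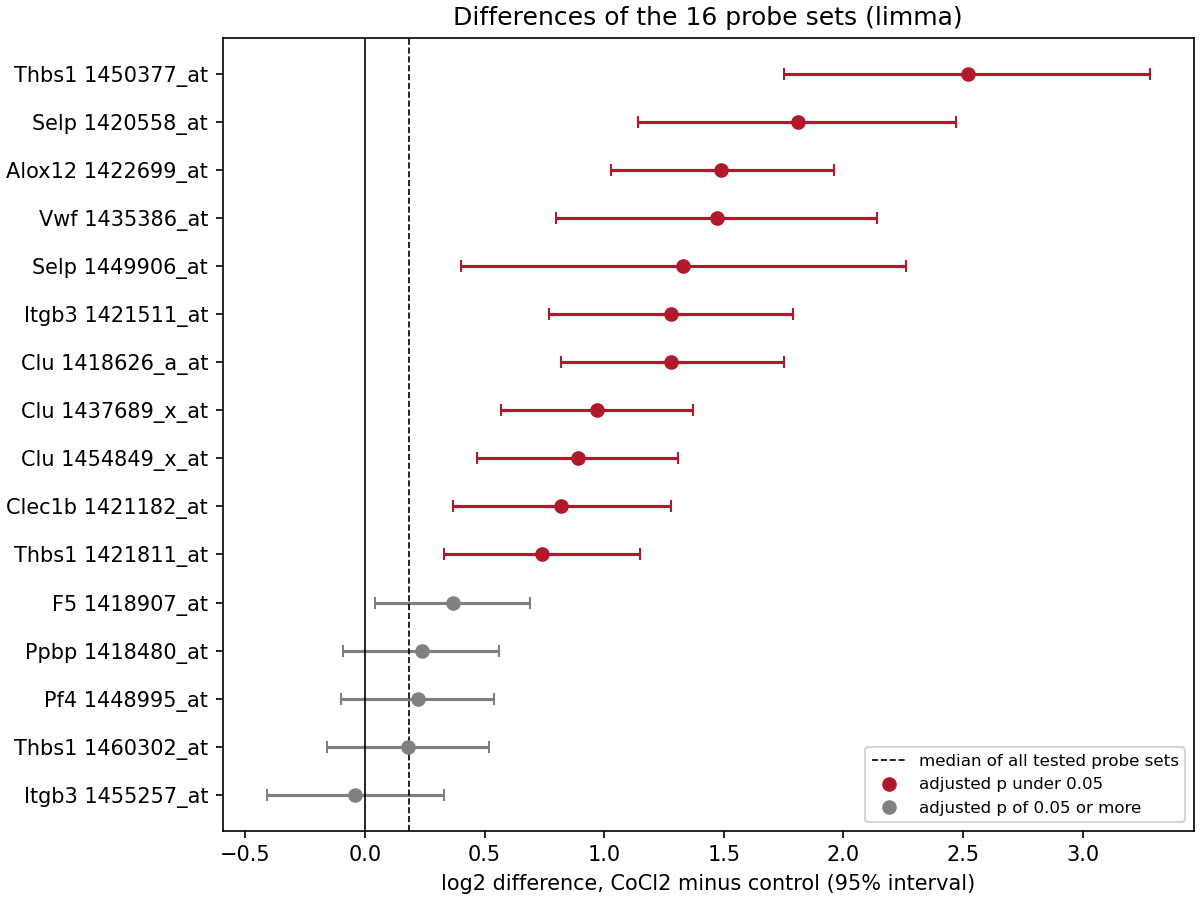
Log2 difference (CoCl2 minus control, x axis) with its 95% interval from limma for each probe set, in order of size, with the median of all tested probe sets (0.19) as a dashed line. The 11 coloured probe sets passed the threshold, and Pf4, Ppbp and Thbs1 1460302_at lie close to the dashed line.

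The size of the differences was compared with the signal level of the probe sets. Of the 11 with a mean log2 value of at least 10, 6 were higher, against 32.4% of all tested probe sets in that range, and their median difference was 0.74 against 0.08. All 5 with a mean under 10 were higher, against 28.5% of tested probe sets in that range. The range reaches down to a mean of 2.90, so this share is not one for probe sets of like signal. In the upper 25% by mean, 4539 of 11260 probe sets were higher and 1607 lower, with a median difference of 0.41. Of the 5, only Itgb3 1421511_at lay outside that upper 25%. Among genes with several probe sets, the largest difference was at the probe set of lowest signal for Itgb3, Clu and Thbs1, and at that of higher signal for Selp. The part of signal level in these differences was not tested.

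Ratios within an array do not change when the whole array is shifted, and each probe set was therefore also set against Pf4 on the same array. For 13 of 15 the ratio to Pf4 was higher with CoCl2 on average. Each change in ratio is the probe set's own log2 difference minus that of Pf4 (0.22). Only Itgb3 1455257_at and Thbs1 1460302_at had a smaller difference than Pf4, so this count restates the order of the differences and is no separate result. The same ratio was not computed for the other tested probe sets, so counts here lack a share over all of them. The groups did not overlap for 9, namely Clec1b, Selp 1420558_at, Vwf, Itgb3 1421511_at, all 3 for Clu, Alox12 and Thbs1 1450377_at (two-sided exact permutation p = 0.0286 for each, the smallest that 4 against 4 arrays can give, adjusted 0.0476 over 15 ratios). The log2 ratio of Alox12 to Pf4 averaged -2.58 ± 0.20 in controls and -1.31 ± 0.16 with CoCl2 (SD, n = 4 each), and that of Clec1b from -1.14 ± 0.16 to -0.54 ± 0.17 (SD, n = 4 each). The ratio of Vwf to Pf4 was higher by 1.25 and that of Selp 1420558_at by 1.59. The ratio of Ppbp to Pf4 was 0.45 ± 0.12 in controls and 0.47 ± 0.14 with CoCl2 (SD, n = 4 each; exact permutation p = 0.857, adjusted 0.857). For F5 the ratio was higher by 0.15 (exact permutation p = 0.0571, adjusted 0.0779), and for Thbs1 1460302_at it differed by -0.04 (exact permutation p adjusted over the 15 ratios, 0.857). Such ratios show unequal change in the signals of these probe sets and not which of them changed. Between probe sets of the same gene, the ratio also separated the groups in 5 of 8 pairs. Each of these pairs involved Clu 1418626_a_at or a probe set with control values near the array medians, Itgb3 1421511_at or Thbs1 1450377_at. Pairs that share a probe set are not independent, and same-gene pairs of other genes were not examined. The part of unequal probe response was not tested.

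**Figure D4:**
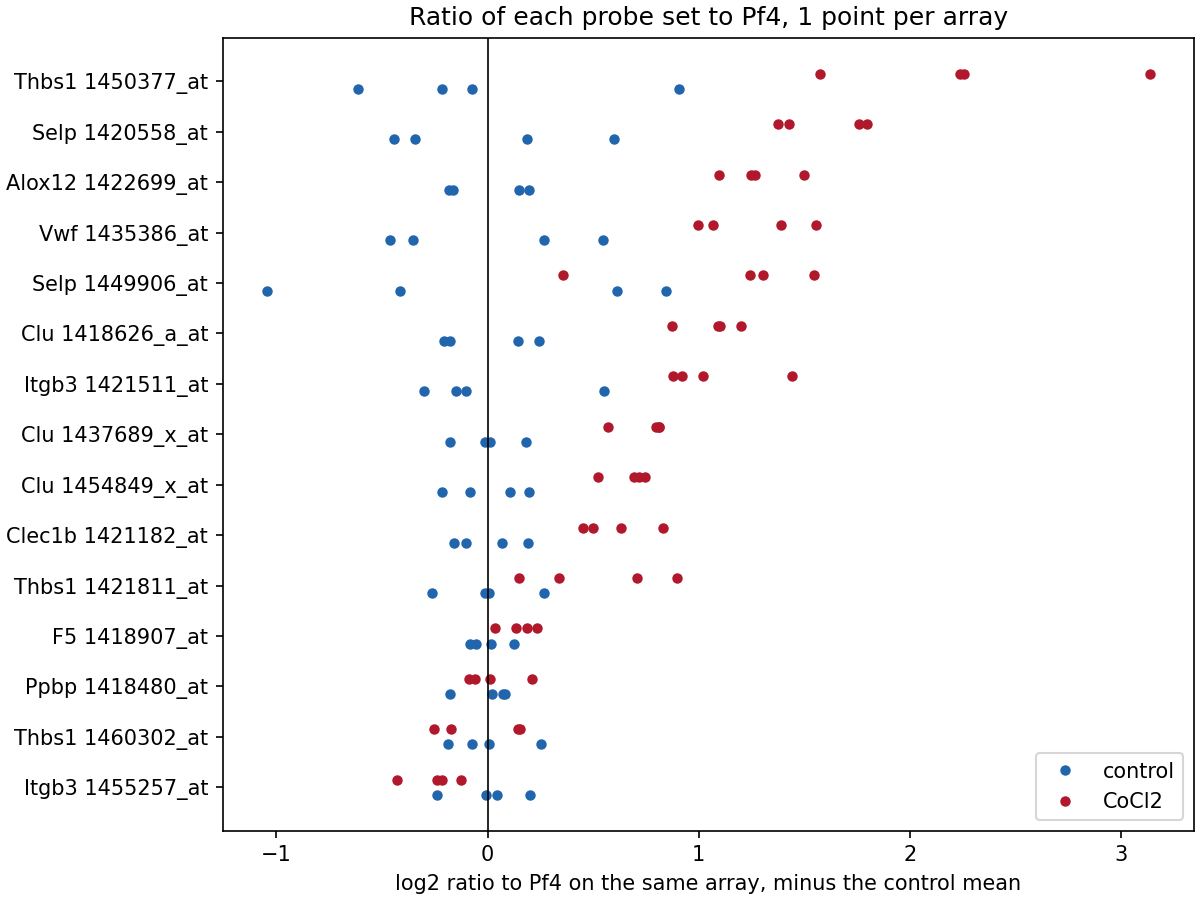
Log2 ratio of each probe set to Pf4 on the same array, minus its mean in controls (x axis), 1 point per array. CoCl2 and control points are separate for 9 of the 15 probe sets and mixed for Ppbp, F5, Itgb3 1455257_at, Selp 1449906_at and the Thbs1 probe sets 1460302_at and 1421811_at.

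Arrays of one group differed in the same sense across most of these probe sets. CoCl2 replicate 1 lay above its group mean for 15 of the 16 and was the highest CoCl2 array for 11. Control replicate 2 lay above its group mean for 15 and control replicate 4 for 14, while control replicate 3 was the lowest control for 11. After group means were subtracted, 100 of the 120 pairs of probe sets correlated above 0 over the 8 arrays, with a median Pearson r of 0.59. These correlations are descriptions over 8 arrays that share their scaling. The share of pairs above 0 and the counts by array were not computed over all tested probe sets. The Clu probe sets followed each other closely, with r of at least 0.95. With Pf4, r was 0.92 for Clec1b, 0.87 for Alox12, 0.84 for F5 and 0.67 for Ppbp, but 0.01 for Thbs1 1421811_at and -0.48 for Thbs1 1450377_at. The latter 2 rose with CoCl2 without following Pf4 within the groups. The Selp probe sets did not follow each other (r = -0.01).

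Among all 22518 other tested probe sets ordered by that correlation with Pf4, Clec1b ranked 89th, Alox12 256th, Clu 1454849_x_at 259th and F5 440th, and Ppbp ranked 2060th. The 5 most alike had r from 0.98 to 0.99 and are not named by the files. Of these, 3 passed the threshold, where 45.1% of all tested probe sets did. On the log2 scale 1426354_at, 1435875_at and 1449431_at were higher with CoCl2 by 0.55, 0.55 and 2.00 (limma adjusted p = 0.0356, 0.047 and 0.000244). The differences of 0.70 for 1428442_at and 0.07 for 1433973_at did not pass (limma adjusted p = 0.0589 and 0.649).

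**Figure D5:**
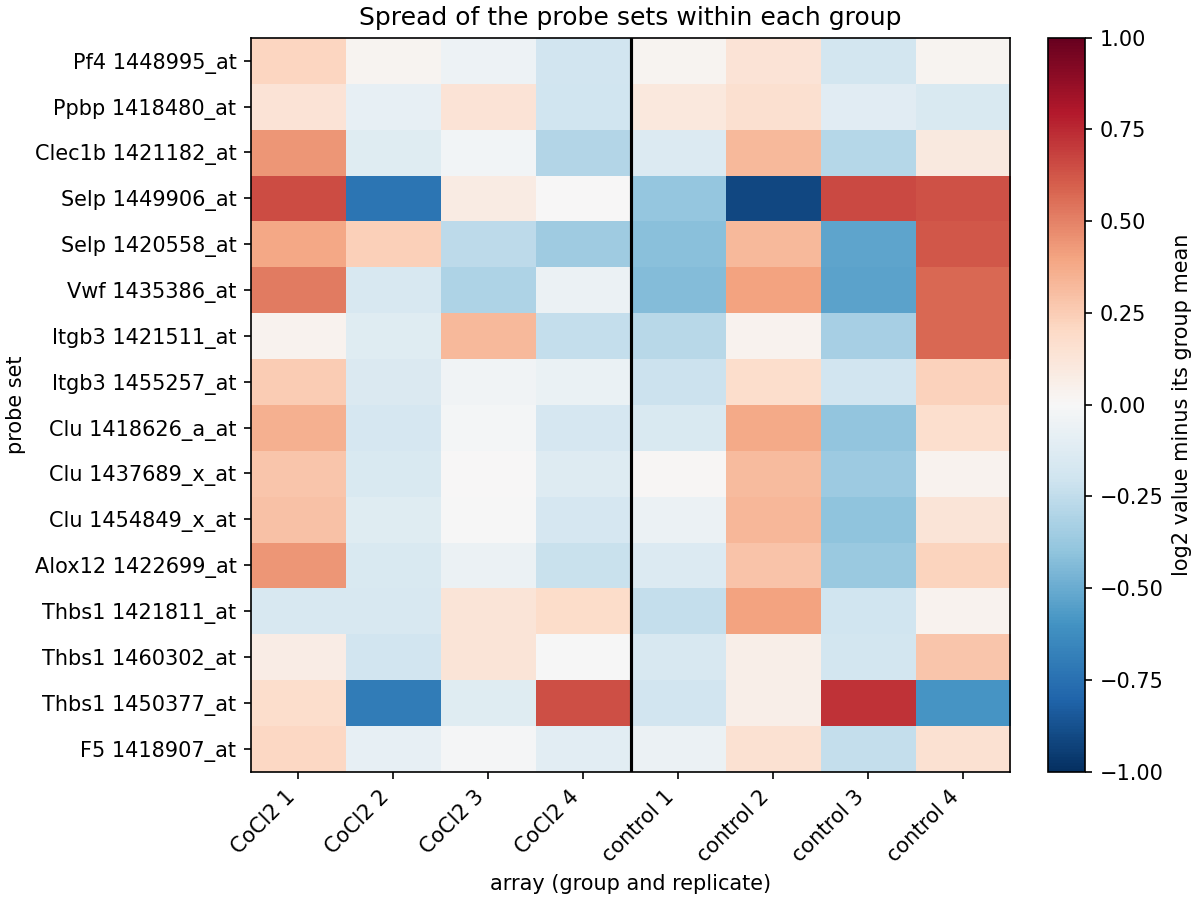
Log2 value minus the mean of its own group for each probe set (rows) and array (columns, CoCl2 left and control right of the line), as a colour from blue (below) to red (above). CoCl2 replicate 1 and control replicates 2 and 4 are mostly red and control replicate 3 mostly blue, with Thbs1 1450377_at and Selp 1449906_at as exceptions in control replicate 3.

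The authors' deposited table of their own comparison lists all 16 probe sets. Positive scores with a q-value under 5% are given for 13 of them by the authors' deposited table, and for 47.6% of its 24878 probe sets, and negative scores with such a q-value for 0 of the 16. The authors' deposited table thus adds Ppbp (q-value 4.06%) and F5 (0.77%) to the 11 named above, and leaves out Pf4 (7.57%), Thbs1 1460302_at (7.57%) and Itgb3 1455257_at (16.5%). Log2 differences from the restored values minus those in the authors' deposited table ranged from -0.32 for Itgb3 1421511_at (1.28 here, 1.60 there) to 0.30 for Clu 1437689_x_at (0.97 here, 0.67 there).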

How the data were processed

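Whole-blood RNA was labelled with biotin and hybridised to 1 array per sample, 4 from CoCl2-treated mice and 4 controls, grouped by their titles. GCRMA and Partek are named in the submitters' processing notes. In the value table the authors deposited, each probe set has a score for each array, a log2 value whose decimal point was lost. The point was put back from the digits, within bounds of 1.69 and 17 and without use of the groups. Several readings were possible in 0.34% of 360808 cells and in 0 of the 128 cells analysed here. That the restored values, 1.69 to 16.89, are log2 is inferred and stated in no header. The second file, per the file headers, is a SAM comparison with a score, a log2 difference, its error, a ratio (fold change) and a q-value in percent. Which arrays and settings it used is not stated there, nor are versions of the submitters' tools.

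Control probe sets were left out, and the upper 50% by mean log2 value (22519 probe sets) was tested with limma 3.58.1 in R 4.3.3 (lmFit, eBayes, two-sided, Benjamini-Hochberg, threshold 0.05). This fit was tried on simulated data in which a small share of probe sets changed, unlike the data. The restoration was tried on values damaged by the rules it assumes, which cannot show that those rules hold. Depth does not apply to arrays, and their number limits the precision (median SE 0.21). Ratios within arrays used two-sided exact permutation of 70 arrangements, and were chosen after seeing the values.

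The members and lists were chosen with earlier results of these data known. Named are the 16 members and probe sets most like Pf4. No table pairs other probe sets with genes, so 9 lists (other platelet genes, plasma coagulation, endothelial, erythroid, neutrophil, B cell, T cell, NK cell and monocyte markers) were not analysed here, and whole blood could not be checked against its markers. Replicate numbers were not treated as pairs in the main fit. Deviations of same-numbered arrays correlated between -0.038 and 0.02, which cannot show that the arrays were unpaired. Alternatives were no filter and a stricter filter, 3 scalings planned and 2 added after seeing the data (Gapdh and beta-actin controls), array weights, a prior with trend and robust options, replicate blocks, leaving out each array, ambiguous cells set to missing, limma's treat test, 1 value per gene, a count of groups without overlap, and the authors' table.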

Additional observations from a re-analysis of the deposited data

Results flagged for a closer look

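Each of the 32 groups of 4 values (16 probe sets in 2 groups) was examined for an array far from the other ones by Dixon's criterion, which flags about 1 in 20 groups by chance. The criterion was met in 0 of them. The study has 1 tissue and 1 contrast, so no effect could be compared between tissues or times.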

How the results depend on the processing

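Of 335 results for single probe sets under 21 alternatives, 300 kept their direction and their side of the threshold, 18 fell short of it, 8 newly passed it in the same direction and 9 changed sign, 4 of these also newly passing. The 335 include ambiguous cells set to missing, which could not alter the values of the 16, as 0 of their cells were ambiguous. Without 1 array at a time, 10 or 11 of the 16 probe sets were past the threshold, as many were higher, 0 were lower, and the median difference was 0.80 to 1.01. Those fits called 5055 to 6424 of all 22519 tested probe sets higher and 2901 to 3873 lower. With the replicate number as a replicate block 11 passed, all higher, and the block changed no call among the 16. It left 5782 of all tested probe sets higher and 3432 lower. Testing for changes beyond 1.5-fold (treat in limma), stricter by construction, gave 5, and 5 higher. That test called 1637 of all 22519 tested probe sets higher and 1448 lower. Centring on bioB and bioC, which adds the controls' shift to every probe set, gave a median of 2.75 and 1.78 for Itgb3 1455257_at. Centring on beta-actin, added after seeing the data, gave 6 higher and 4 lower, a median of 0.28, and -0.43 for Pf4, -0.41 for Ppbp, -0.47 for Thbs1 1460302_at and -0.28 for F5. Centring on Gapdh, also added, gave 11 higher. Thbs1 1460302_at turned to -0.03 after quantile normalization. Itgb3 1455257_at, near 0, ranged from -0.12 to 0.04 without 1 array, with 0.01 without CoCl2 replicate 2, 0.02 without control replicate 2 and 0.04 without control replicate 4. The stricter filter left out Itgb3 1421511_at and tested 15, of which 10 were higher and 0 lower. It called 4539 of all 11260 probe sets it tested higher and 1607 lower, with a median difference of 0.41. Causes of these changes were not tested unless stated.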
